A study of Rattus norvegicus with 12 samples.

Results

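Cortical projection neuron transcription factors are the DNA-binding proteins and cofactors that give the excitatory, glutamatergic neurons of the cerebral cortex their identity and, within it, their layer. The set described here holds 9 genes: Tbr1, Neurod6, Neurod2, Neurod1, Mef2c, Bcl11b, Foxp1, Rorb and Lmo4. Every probe set of the array that its annotation assigns to exactly 1 of these genes was taken, whatever its signal, which gave 21 of the 31099 probe sets in the deposited value table and 9 of the 12153 genes tested. The study compared brain RNA of male Sprague-Dawley rats, 8 weeks old, after middle cerebral artery occlusion (MCAO, 7 rats), a model of focal ischaemic stroke, with RNA of rats of the same strain, sex and age after a sham operation (Sham, 5 rats). Per the labels, the left hemisphere was taken from every rat 24 hours after reperfusion, and no transgene or drug was given to either group. The labels give neither the length of the occlusion nor the side of the occluded artery, and the tissue is a whole hemisphere rather than cortex alone.

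In the cortex, basic helix-loop-helix factors of the NeuroD family switch on the neuronal programme as progenitors leave the cell cycle, and they bind short E-box motifs together with ubiquitous partners. Layer identity is then set by factors that act against each other: Tbr1 marks deep neurons that project to the thalamus, Bcl11b (CTIP2) deep neurons that project to the spinal cord, and Rorb the layer that receives thalamic input. Several of these genes are also used elsewhere in the forebrain, since Bcl11b and Foxp1 are prominent in striatal projection neurons and Neurod1 in granule neurons.

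The values are log2 signals of the probe sets, 1 array per rat, and the 12 array medians lay between 7.23 and 7.27. In 62.5% of the probe sets other than array controls the values were nearly the same in all arrays, with a standard deviation (SD) under 0.01 over the 12, and for these no change between the groups can be read. They are called near-constant here, and the other probe sets varying. The difference in signal between the 3′ and 5′ beta-actin control probe sets was 1.27 to 1.47 in MCAO and 1.40 to 1.46 in Sham rats (exact two-sided permutation test, p = 0.0770). On the array of MCAO 6 the values of the control probe sets stood 12 rows away from their names. After moving them by 12 rows, 40 of 40 near-constant controls matched the other arrays, and the 7 near-constant member probe sets described next needed no such move. Neuronal markers were well represented, with a mean log2 signal of 15 varying pan-neuronal genes of 11.04 to 11.16 in Sham rats and 10.63 to 11.01 in MCAO rats.

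Of the 21 member probe sets, 14 varied and 7 were near-constant. A probe set or gene passed the test here where the adjusted p of the limma fit over all features was under 0.05. Among the 14 varying probe sets, 10 passed as lower in MCAO, 0 as higher and 4 did not pass. One of the 10, an Lmo4 probe set, met the filter on low signal only through the Sham rats, and of the 13 above it in every array, 9 passed as lower, with a median log2 change of −0.51. Over all varying probe sets tested, 30.7% passed as lower and 37% as higher. The median log2 change, MCAO minus Sham, was −0.52 for the 14 member probe sets and 0.06 for all varying probe sets. The members were chosen with earlier results of these data known. Contrasts with all features in this paragraph are therefore no separate support for a fall. In 7 of the 14, every MCAO rat lay below every Sham rat, which held for 14.2% of all varying probe sets. With 1 probe set per gene, 6 members had a varying one, and 5 of these fell: Neurod6, Mef2c, Bcl11b, Foxp1 and Lmo4. Over all varying genes, 34.2% passed as lower and 35.2% as higher, and over all tested genes, near-constant ones included, these shares were 22.1% and 22.2%. The samples were bulk tissue, so fewer neurons of a type and less RNA per neuron cannot be told apart in any of these values.

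**Figure D1:**
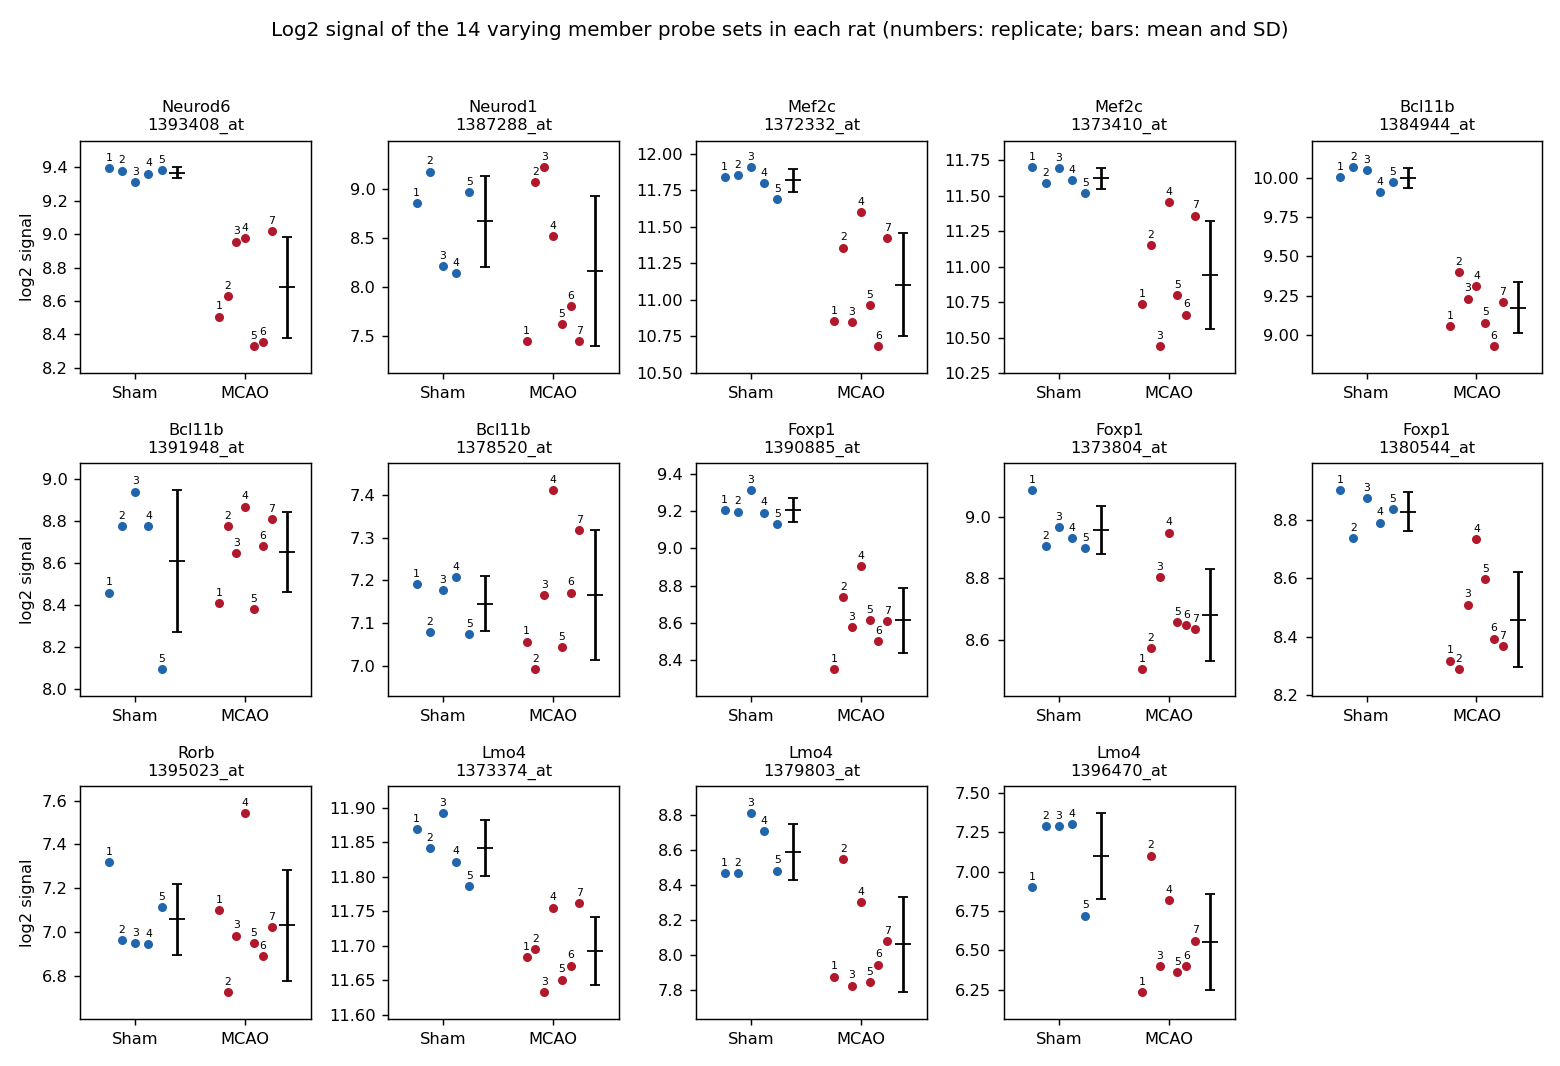
Log2 signal (y axis) of each of the 14 varying member probe sets in the 5 Sham rats (blue) and the 7 MCAO rats (red), with the replicate number at each point and the group mean and SD as bars. Neurod6, both Mef2c probe sets, 1 Bcl11b, 2 Foxp1 and 1 Lmo4 probe sets show no overlap between the groups, while Neurod1, Rorb and the other 2 Bcl11b probe sets overlap broadly.

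The NeuroD members bind E-boxes and can act on one another's genes, so the sequences before the starts of their own genes are shown with these motifs. The E-box was searched as CANNTG, which reads the same on both strands, and the form favoured by NeuroD factors as CAGATG on either strand, which is contained in the first. The sequences are the 250 bases before the start in RefSeq's table for the rat assembly GRCr8, written 5′ to 3′ on the gene's strand, with E-boxes in capitals. Neurod6 lies on the minus strand at chr4:86180156-86180405, Neurod2 on the minus strand at chr10:83824278-83824527, and Neurod1 on the minus strand at chr3:84770455-84770704.
Neurod6: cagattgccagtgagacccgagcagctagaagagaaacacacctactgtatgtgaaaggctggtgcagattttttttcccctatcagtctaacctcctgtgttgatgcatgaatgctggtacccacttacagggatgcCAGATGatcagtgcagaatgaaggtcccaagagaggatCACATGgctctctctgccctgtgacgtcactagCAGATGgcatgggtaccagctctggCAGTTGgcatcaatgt
Neurod2: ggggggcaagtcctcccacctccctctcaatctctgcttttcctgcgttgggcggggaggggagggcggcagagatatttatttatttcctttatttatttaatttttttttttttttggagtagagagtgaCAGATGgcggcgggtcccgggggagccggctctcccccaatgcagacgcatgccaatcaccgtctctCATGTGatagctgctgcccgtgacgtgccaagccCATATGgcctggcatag
Neurod1: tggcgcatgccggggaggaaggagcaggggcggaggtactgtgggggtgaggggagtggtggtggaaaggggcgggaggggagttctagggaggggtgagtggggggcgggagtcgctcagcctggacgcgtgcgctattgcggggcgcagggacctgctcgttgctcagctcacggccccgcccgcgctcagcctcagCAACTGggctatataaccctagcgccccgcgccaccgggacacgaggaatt
The Neurod6 window held 4 E-boxes, of which 2 read CAGATG, and they began 112, 74, 41 and 16 bases before the start. Neurod2 had 3, with 1 CAGATG, and Neurod1 had 1, which was of another form. Among 33469 rat promoter windows of the same length, 65.54% held at least 1 E-box and 13.96% held CAGATG. Of the other members in the table, Foxp1 had 2 E-boxes, Tbr1 had 1, and Rorb and Lmo4 had 0. A match describes letters only and was not tested as a binding site.

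Neurod6, a NeuroD factor of postmitotic cortical and hippocampal pyramidal neurons, was lower in every MCAO rat. Its single probe set, 1393408_at, read 9.40, 9.38, 9.31, 9.36 and 9.38 in Sham 1 to 5, and between 8.33 and 9.02 with a median of 8.63 in the MCAO rats. The Sham rats lay close together, whereas MCAO 3, 4 and 7 sat near 9 and MCAO 5 and 6 lowest, at 8.33 and 8.35. The group means were 9.37 ± 0.03 (SD, n = 5) in Sham and 8.68 ± 0.30 (SD, n = 7) in MCAO, a log2 change of −0.69 (SE 0.13; limma adjusted p = 0.00376 over all probe sets). This is a signal 1.61-fold higher in Sham than in MCAO.

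Neurod1, which drives differentiation of granule neurons in the dentate gyrus and cerebellum besides its early role in cortex, did not pass the test. Probe set 1387288_at read 8.85, 9.17, 8.21, 8.14 and 8.96 in Sham 1 to 5, and from 7.45 to 9.22 with a median of 7.80 in the MCAO rats. The groups overlapped: MCAO 2 and 3, at 9.06 and 9.22, stood level with the highest Sham rats, and MCAO 1, 5, 6 and 7 lay below all Sham rats. The mean change was −0.51 on the log2 scale (SE 0.38; limma adjusted p = 0.311), and the SD within groups was 0.76 in MCAO and 0.46 in Sham.

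The spread of Neurod1 ran beside that of Gabra6, the GABA-A receptor subunit typical of cerebellar granule neurons. Gabra6 read 8.21, 8.94, 5.73, 5.75 and 8.34 in Sham 1 to 5, so the 3 Sham rats with high Gabra6 were the 3 with high Neurod1. Among MCAO rats Gabra6 was 9.15 and 8.98 in MCAO 2 and 3 and between 5.72 and 6.97 in the others, and MCAO 2 and 3 were also the highest for Neurod1. Both groups thus held rats with high and with low signal. Because the Gabra6 values fall into separate clusters, no correlation between them over the 12 rats is given. Of the 10 granule neuron markers listed, 6 were tested and 2 varied, Gabra6 and Cbln1, and 0 of these 2 passed the test. The mean of the 2 was 6.79 to 9.06 in MCAO and 6.72 to 8.74 in Sham. Cbln1, a cerebellar synaptic organiser, was at 7.68 to 8.54 in Sham and 7.73 to 9.14 in MCAO, and was high in MCAO 1 and MCAO 5, where Gabra6 and Neurod1 were low. With the Gabra6 signal of each array as a covariate, a setting chosen after seeing the data, the change of Neurod1 was −0.33 (SE 0.20; limma adjusted p = 0.219), and Neurod6 stood at −0.68.

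**Figure D2:**
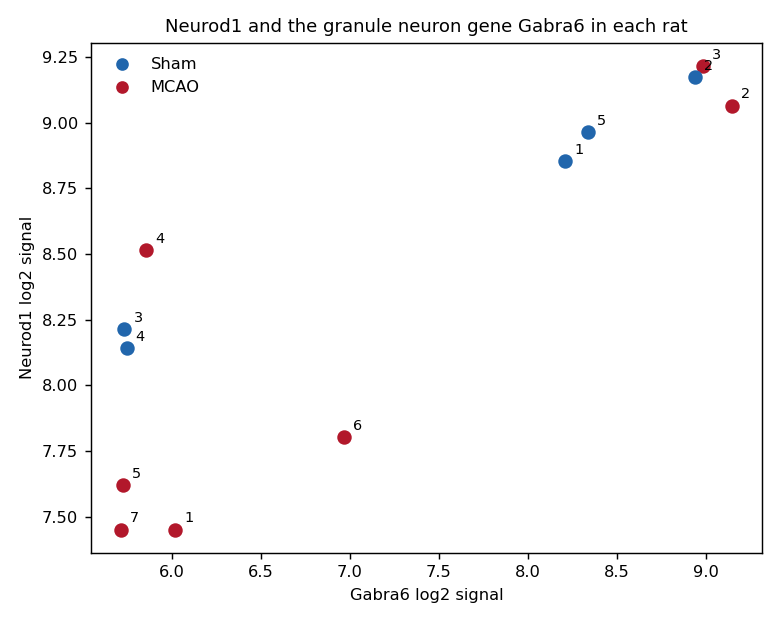
Log2 signal of Neurod1 (y axis) against that of Gabra6 (x axis) in each rat, Sham in blue and MCAO in red, with replicate numbers. MCAO 2 and 3 and Sham 1, 2 and 5 lie together at the upper right, with Gabra6 above 8, and the other 7 rats have Gabra6 below 7.

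Neurod2, a NeuroD factor of cortical pyramidal neurons that acts in synapse formation, was near-constant at 8.04 in all 12 arrays on its single probe set, 1387577_at. Tbr1, the T-box factor of deep-layer neurons, was likewise near-constant at 6.70 on 1375539_at. Its log2 change of −0.00029 had a limma adjusted p of 0.0424 in the fit of genes, on a scale where no change can be read. No statement on a rise or fall after MCAO can therefore be made for either gene. Formally, 4 of the 7 near-constant member probe sets passed the test as lower, with no change above 0.0041, and they are counted nowhere else.

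Mef2c, a MADS-box factor that responds to neuronal calcium and limits excitatory synapse number, fell on both of its probe sets. Probe set 1372332_at read 11.84, 11.85, 11.91, 11.80 and 11.69 in Sham 1 to 5, and from 10.68 to 11.60 with a median of 10.97 in MCAO rats. Probe set 1373410_at read 11.70, 11.59, 11.70, 11.61 and 11.52 in Sham, and from 10.44 to 11.45 with a median of 10.80 in MCAO. On both, MCAO 4 and MCAO 7 were nearest to Sham, and no MCAO rat reached the lowest Sham rat. The changes were −0.71 (SE 0.16; limma adjusted p = 0.00634) and −0.68 (SE 0.17; limma adjusted p = 0.0109). The difference between these 2 changes was −0.03, within the spread between rats (exact two-sided permutation test, adjusted p = 0.784 over 10 pairs of probe sets of the same gene).

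Bcl11b, the zinc-finger factor of corticospinal and striatal projection neurons, had the most negative change among the members on 1 probe set and none that passed on the other 2. Probe set 1384944_at read 10.01, 10.07, 10.05, 9.91 and 9.97 in Sham 1 to 5, and from 8.93 to 9.40 with a median of 9.21 in MCAO. The gap between the groups was wider than the range of either, and the change was −0.83 (SE 0.08; limma adjusted p = 0.000287), a signal 1.77-fold higher in Sham. Probe set 1391948_at read 8.46, 8.77, 8.94, 8.78 and 8.09 in Sham and 8.38 to 8.87 in MCAO. Probe set 1378520_at read 7.19, 7.08, 7.18, 7.21 and 7.07 in Sham and 6.99 to 7.41 in MCAO. Both overlapped fully, with changes of 0.04 and 0.02 (limma adjusted p = 0.848 and 0.858). The change of 1384944_at differed from theirs by −0.87 and −0.85 (exact two-sided permutation test, adjusted p = 0.00631 for each). With the mean of the 3 probe sets in place of the brightest, the change of Bcl11b was −0.25 (limma adjusted p = 0.0216). Where on the transcript each probe set lies was not analysed here.

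Foxp1, a forkhead repressor of cortical and striatal projection neurons, fell on all 3 of its varying probe sets, and its other 2 were near-constant at 7.88 and 6.65. Probe set 1390885_at read 9.21, 9.20, 9.31, 9.19 and 9.13 in Sham 1 to 5, and from 8.35 to 8.91 with a median of 8.61 in MCAO, so the groups did not overlap. Its change was −0.59 (SE 0.08; limma adjusted p = 0.0012), a signal 1.51-fold higher in Sham. Probe set 1373804_at read 9.09, 8.90, 8.97, 8.93 and 8.90 in Sham and 8.51 to 8.95 in MCAO, with only MCAO 4 inside the Sham range. On 1380544_at Sham rats read 8.90, 8.74, 8.88, 8.79 and 8.84 and MCAO rats 8.29 to 8.74, and the highest MCAO rat, MCAO 4, lay just under the lowest Sham rat. The changes of these were −0.28 (SE 0.07; limma adjusted p = 0.0125) and −0.37 (SE 0.08; limma adjusted p = 0.00462). The brightest of the 3 had the more negative change, by −0.32 against 1373804_at and −0.22 against 1380544_at (exact two-sided permutation test, adjusted p = 0.0126 and 0.0404). The mean over all 5 Foxp1 probe sets, near-constant ones included, gave −0.25 (limma adjusted p = 0.00181).

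Markers of striatal projection neurons moved beside Bcl11b and Foxp1. Of 18 listed, 14 were tested and 13 varied, and 12 of the 13 fell, with a median change of −0.84. Syndig1l, a transmembrane protein gene enriched in striatum, was at −1.11 (SE 0.07), and Drd2, the dopamine receptor of the indirect pathway, at −0.84 (SE 0.06), with limma adjusted p = 7.84e-05 and 8.29e-05. The mean signal of the 13 was 8.93 to 9.04 in Sham and 8.10 to 8.42 in MCAO, with no overlap. Of the cortical glutamatergic markers other than the members, 7 varied, 4 fell and 1 rose, and their mean was 10.88 to 10.93 in Sham and 10.42 to 10.86 in MCAO. Lamp5, a membrane protein of upper-layer neurons, was at −0.49 (SE 0.08) and Slc17a6, a vesicular glutamate transporter, at −0.30 (SE 0.07). Cck, which rose, was at 0.43 (limma adjusted p = 0.0209). Camk2a at −0.43 and Slc17a7 at −0.28 did not pass (limma adjusted p = 0.0893 and 0.165). The part of striatal and of cortical tissue in the changes of Bcl11b and Foxp1 was not tested.

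Lmo4, a LIM-only cofactor that counters Bcl11b in setting callosal against subcerebral identity, fell on each of its 3 varying probe sets but by unequal amounts. The brightest, 1373374_at, read 11.87, 11.84, 11.89, 11.82 and 11.79 in Sham 1 to 5 and 11.63 to 11.76 in MCAO, with a median of 11.68. The groups did not overlap, although the change was small at −0.15 (SE 0.03; limma adjusted p = 0.00269). Probe set 1379803_at read 8.47, 8.47, 8.81, 8.70 and 8.48 in Sham and 7.83 to 8.55 in MCAO, and MCAO 2 lay within the Sham range. Probe set 1396470_at read 6.90, 7.29, 7.29, 7.30 and 6.72 in Sham and 6.23 to 7.10 in MCAO, with MCAO 2 and 4 within the Sham range. It exceeded the filter on low signal, 6.61, in all 5 Sham rats but only in MCAO 2 and MCAO 4, so it was tested only through the group where it is high, and its call supports nothing here. The changes of these dimmer probe sets were −0.52 (SE 0.13; limma adjusted p = 0.0114) and −0.55 (SE 0.17; limma adjusted p = 0.0247). The change of the brightest was less negative than that of 1379803_at by 0.38 (exact two-sided permutation test, adjusted p = 0.0404), and than that of 1396470_at by 0.40, which did not pass (adjusted p = 0.0631). With the probe set of largest variance standing for the gene, the change of Lmo4 is the −0.55 of 1396470_at, and the mean of all 5 gave −0.24. The remaining 2 Lmo4 probe sets were near-constant at 8.45 and 6.98.

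Rorb, the orphan nuclear receptor of the thalamic input layer, showed no change that passed the test. Its brighter probe set, 1371257_at, was near-constant at 7.35. The other, 1395023_at, read 7.32, 6.96, 6.95, 6.94 and 7.11 in Sham and 6.72 to 7.54 in MCAO, with both the lowest and the highest rat in the MCAO group. Its change was −0.03 (SE 0.13; limma adjusted p = 0.891).

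**Figure D3:**
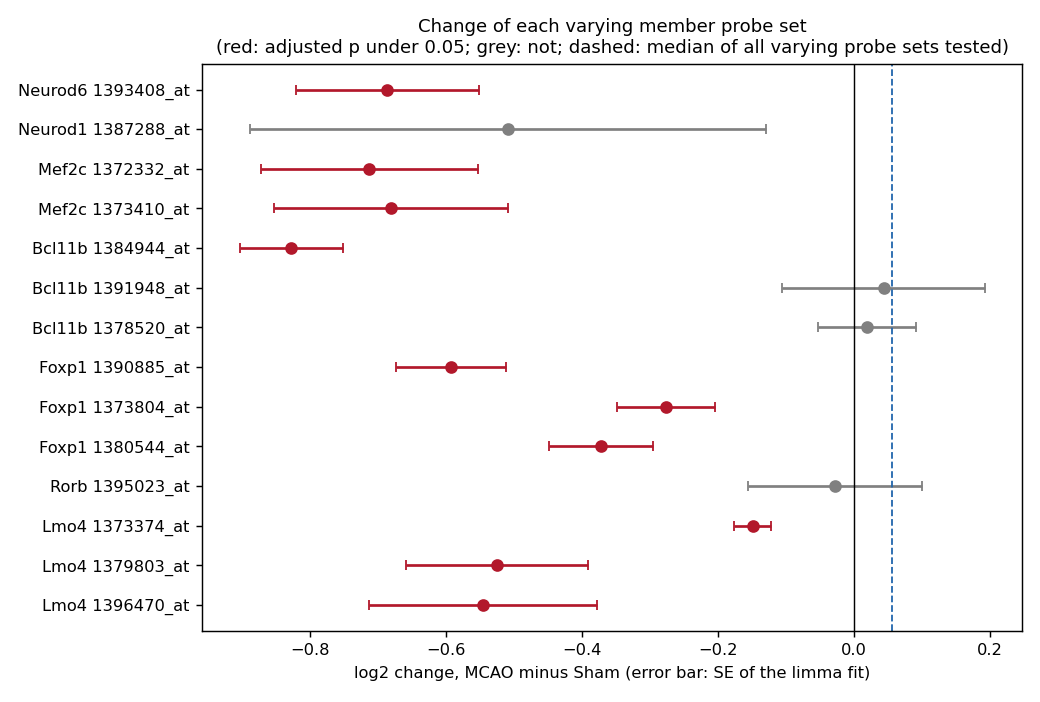
Log2 change, MCAO minus Sham (x axis), of each varying member probe set with the SE of the limma fit as bars, red where the adjusted p was under 0.05 and grey where not, and the median of all varying probe sets, 0.06, as a dashed line. Bcl11b 1384944_at lies farthest to the left at −0.83, its other 2 probe sets lie near 0, and the 3 Lmo4 probe sets run from −0.15 to −0.55.

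Whether members fell by different amounts was tested within arrays, on the difference between the probe sets of a pair, for all 15 pairs of the 6 varying member genes. In 5 pairs the changes differed (exact two-sided permutation test, adjusted over 15 pairs). In 4 of these Lmo4, by its brightest probe set, changed less: by comparison Bcl11b stood −0.68 (adjusted p = 0.00947), Foxp1 −0.44 (0.00947), Mef2c −0.56 (0.0152) and Neurod6 −0.54 (0.0152) further down. The fifth pair was Bcl11b against Foxp1, with a difference of −0.23 (adjusted p = 0.0152). All pairs with Bcl11b rest on 1384944_at alone, as its probe sets 1391948_at and 1378520_at had changes of 0.04 and 0.02. Neurod6, Mef2c and Bcl11b were not separated from each other, with differences of 0.03 between Neurod6 and Mef2c, 0.14 between Neurod6 and Bcl11b and 0.11 between Mef2c and Bcl11b (adjusted p = 0.869, 0.549 and 0.555). Neurod1 was not separated from any other member, and its differences had SDs of 0.66 to 0.77 within the MCAO group. The number of pairs that differed was 9 both with near-constant probe sets left out before the choice of 1 per gene and with the mean of all probe sets. Both settings add Rorb to the genes paired, so 9 is not a count over the same 15 pairs. With the mean, near-constant probe sets included, Bcl11b, Foxp1 and Lmo4 changed by −0.25, −0.25 and −0.24. Only 3 of the 5 probe sets of Foxp1 and of Lmo4 varied, against all 3 of Bcl11b, so these means do not show equal changes. The differences named above between these genes rest on the brightest probe sets.

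The MCAO rats did not stand at the same distance from Sham. Over the 10 member probe sets that fell, the mean difference from the Sham mean was −0.25 in MCAO 4, −0.39 in MCAO 2, −0.43 in MCAO 7, −0.61 in MCAO 3, −0.64 in MCAO 5, −0.72 in MCAO 6 and −0.72 in MCAO 1. MCAO 4 was among the 3 highest MCAO rats in all 10, and MCAO 1 and MCAO 6 were among the 4 lowest in all 10. These 10 were picked as lower in MCAO from the same data, so the distances from Sham are no separate support for a fall. They include Lmo4 1396470_at, and several belong to the same gene, so they are not 10 independent readings. MCAO 2 was the highest of the 7 in 3 of the 10, but lowest for Foxp1 1380544_at. The SD was larger in MCAO than in Sham for 13 of the 14 varying member probe sets, and for 88.6% of all varying probe sets. In the same rats the mean of the cortical glutamatergic markers was nearest to Sham in MCAO 7 (−0.05), MCAO 4 (−0.10) and MCAO 2 (−0.14), and lowest in MCAO 6 (−0.50). The striatal marker mean differed from Sham by −0.57 to −0.90 in all 7.

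Microglia and macrophage markers moved in both directions. Of 12 tested, 9 varied, 7 rose and 2 fell, with a median of 0.88. Their mean signal was 7.56 to 7.82 in Sham and 7.87 to 8.42 in MCAO. C1qb, a complement subunit made by microglia, was at 1.10 (SE 0.09) and Tyrobp, their signalling adaptor, at 1.61 (SE 0.17). The 2 that fell, named after their values were seen, were the microglial purine receptor P2ry12 at −1.26 (SE 0.19; limma adjusted p = 0.00146) and the microglial membrane protein Tmem119 at −0.52 (SE 0.09; 0.00222). MCAO 2 had the smallest rise of this mean, 0.22, against 0.58 to 0.77 in the others. Of the pan-neuronal markers, 12 of 15 varying fell and 0 rose, with Stmn2, a growth-cone tubulin regulator, at −0.28 (SE 0.04) and Stmn3, its relative, at −0.26 (SE 0.05). Interneuron markers fell in 4 of 9 varying cases and rose in 2, astrocyte markers fell in 6 of 10 and rose in 2, oligodendrocyte markers fell in 2 of 7 and thalamic markers rose in 2 of 3. Among the astrocyte markers, Gfap rose by 1.91 (SE 0.12, limma adjusted p = 5.2e-05) and Aldh1l1 was at −0.78 (SE 0.13, limma adjusted p = 0.00176). Over all varying genes, 34.2% passed as lower and 35.2% as higher. The 3 B and T lymphocyte markers tested were all near-constant. The part of these markers in the members' changes was not tested.

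**Figure D4:**
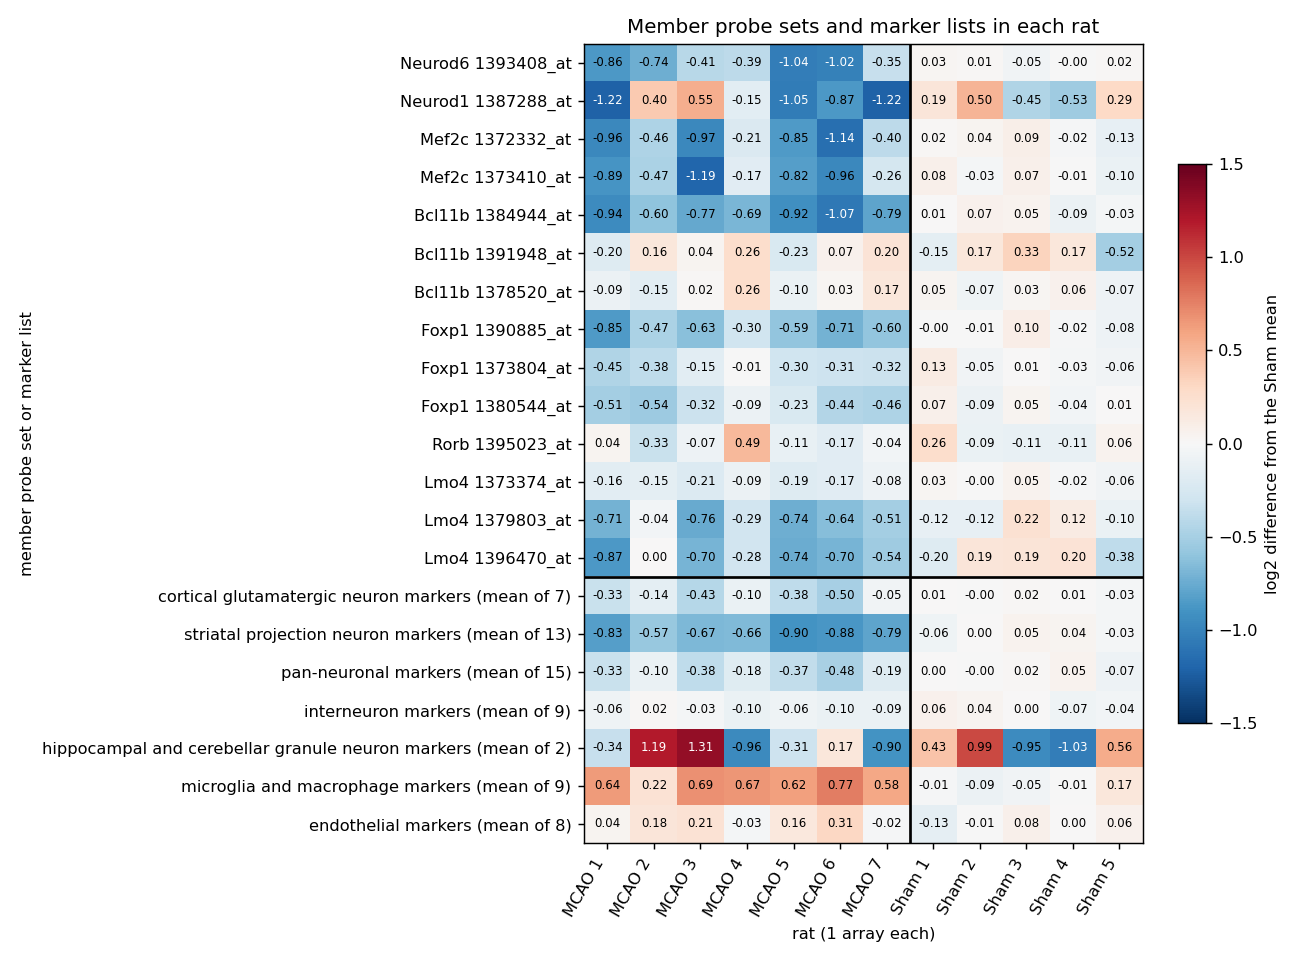
Log2 difference from the Sham mean (colour and printed value) of each varying member probe set and of the mean of 7 marker lists (rows) in each of the 12 rats (columns). MCAO 4 is the palest of the MCAO columns for the probe sets that fell, MCAO 1 and 6 are among the darkest, and Neurod1 varies in both groups beside the granule neuron markers.

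Across the 7 MCAO rats, 91 pairs of varying member probe sets were correlated, and 0 passed after adjustment for Pearson's r or Spearman's rho. The 2 Mef2c probe sets had r = 0.94 and rho = 0.96 (exact permutation p = 0.00417 for r), and r = 0.84 without the 2 rats farthest from the median. The dimmer Lmo4 probe sets had r = 0.97 (exact permutation p = 0.00317), but rho = 0.75 and r = 0.74 without the 2 rats farthest from the median. Mef2c 1373410_at and Lmo4 1373374_at had r = 0.93 (exact permutation p = 0.00238, adjusted p = 0.126) and rho = 0.86. Without the 2 rats farthest from the median, r was 0.79. The 2 rats were chosen anew for each pair, by the values of 1 of its probe sets: 1372332_at, 1379803_at and 1373410_at, in the order given. Probe sets of 1 gene share their transcripts, and all pairs share the same 7 arrays.

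For each member whose brightest probe set varied, the 2 genes outside the set most like it from rat to rat were looked up. Likeness was measured as Pearson's r over the 12 arrays after the group means were subtracted, among 6339 varying genes, and is given as a description with no test. The highest of so many correlations over 12 arrays can be large without any relation. Whether a gene followed a given member or a spread shared by many genes was not tested. The genes most like Neurod6 were Necab2, a neuronal calcium-binding protein, and Ccdc28b, with r = 0.92 for each. For Mef2c they were Fxyd7, a regulator of the sodium pump in neurons, and Dck, deoxycytidine kinase, both at r = 0.98. For Bcl11b they were Pip4k2b, a phosphoinositide kinase, and Htr2c, a serotonin receptor, both at r = 0.96. For Foxp1 they were Smarca2, a chromatin remodeller of the SWI/SNF family (r = 0.96), and Ptprm, a receptor phosphatase (r = 0.95). For Lmo4 they were Ttc9b and the synaptic vesicle protein Vamp2, both at r = 0.88. For Neurod1 they were Il16 and En2, a homeobox gene of the midbrain and cerebellum, for which r is not given because their values fall into the same clusters of rats as Gabra6. En2 was at 6.85 to 7.26 in MCAO 2 and 3 and Sham 1, 2 and 5, the rats with Gabra6 above 8, and at 6.17 to 6.40 in the other 7.

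Genes that work with or beside the members were taken from 6 lists, with members themselves left out. Of 128 genes listed, 99 were tested and 74 varied, of which 39 fell, 13 rose and 22 did not pass, with a median change of −0.26 against 0.03 for all varying genes. The 13 came to 8 without MCAO 1, without MCAO 6 or without Sham 2. Genes can stand on more than 1 list. The lists were chosen with earlier results of these data known, so contrasts with all varying genes are no separate support. Over all varying genes, 34.2% passed as lower and 35.2% as higher, which are the shares to set beside the counts of each list.

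Upper-layer cortical genes fell in 6 of 9 varying cases and rose in 1, with a median of −0.32. Lamp5 was at −0.49, the POU factor Pou3f1 at −0.54 (SE 0.11), the LIM-homeobox factor Lhx2 at −0.54 (SE 0.12) and the calcium buffer Calb1 at −0.32 (SE 0.08). The one that rose was Inhba, the activin A subunit, which is also induced by neuronal activity. It was at 7.80 ± 0.16 (SD, n = 5) in Sham and 10.31 ± 1.44 (SD, n = 7) in MCAO, a change of 2.51 (SE 0.65; limma adjusted p = 0.0108), and its groups overlapped. Deep-layer genes fell in 10 of 14 and rose in 1, with a median of −0.33. Foxp2, the forkhead relative of Foxp1, was at −0.48 (SE 0.06), the corepressor Tle4 at −0.41 (SE 0.06), the calmodulin regulator Pcp4 at −0.20 (SE 0.03) and the contactin Cntn6 at −0.55 (SE 0.10). Bcl6, a zinc-finger repressor used both in cortical neurogenesis and in immune cells, rose by 0.54 (SE 0.11; limma adjusted p = 0.00398).

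Other transcription factors of the pallial glutamatergic lineage fell in 6 of 13 varying cases, rose in 2 and did not pass in 5. Tshz3 was at −0.36 (SE 0.06), the repressor Zbtb18 at −0.45 (SE 0.09), Hivep2 at −0.29 (SE 0.08) and Tcf4, a ubiquitous E-protein that pairs with NeuroD factors, at −0.21 (SE 0.06). Bhlhe40, a stress- and clock-linked repressor, was at 0.44 (SE 0.15) and Nfix at 0.26 (SE 0.10).

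The paralogs of the members moved in both directions. Of 6 that varied, 4 fell and 2 rose. Beside Foxp2, Bcl11a, the relative of Bcl11b, was at −0.47 (SE 0.11; limma adjusted p = 0.00605), Lmo3 at −0.70 (SE 0.16; 0.00707) and Mef2a at −0.20 (SE 0.05; 0.0122). Rora, the relative of Rorb, rose by 0.37 (SE 0.08; limma adjusted p = 0.00594), and Lmo2, a cofactor of blood and endothelial cells, by 0.32 (SE 0.11; 0.0417). Endothelial markers beside Lmo2 rose in 4 of 8 varying cases and fell in 1, where 35.2% of all varying genes passed as higher and 34.2% as lower. The mean of these markers was 8.25 to 8.47 in Sham and 8.36 to 8.69 in MCAO, and their part was not tested.

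Among partners, inhibitors and regulators, 9 of 19 varying genes fell, 5 rose and 5 did not pass. The Id proteins block helix-loop-helix factors by taking their E-protein partners. Of the 4, Id1 rose by 0.85 (SE 0.13; limma adjusted p = 0.00153) and Id4 was at −0.49 (SE 0.08; 0.00194), whereas Id2 at −0.11 (0.331) and Id3 at 0.33 (0.0759) did not pass. Hes1, a Notch-driven repressor of neuronal helix-loop-helix genes, was at 0.47 (SE 0.14; 0.0185), and the corepressor Ctbp2 at 0.18 (SE 0.05; 0.0165). The corepressor Ncor1 was at −0.42 (SE 0.07; 0.00183) and Cabin1, a repressor of MEF2 and calcineurin, at −0.30 (SE 0.05; 0.00253). Of 18 varying genes listed as described targets of the members or their relatives, 8 fell, 2 rose and 8 did not pass, with a median of −0.28. Stmn2 and the protocadherin Pcdh20, at −0.94 (SE 0.19; limma adjusted p = 0.00347), were among those that fell. Jun, an immediate-early factor also induced by injury, rose by 1.23 (SE 0.19; limma adjusted p = 0.00153).

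**Figure D5:**
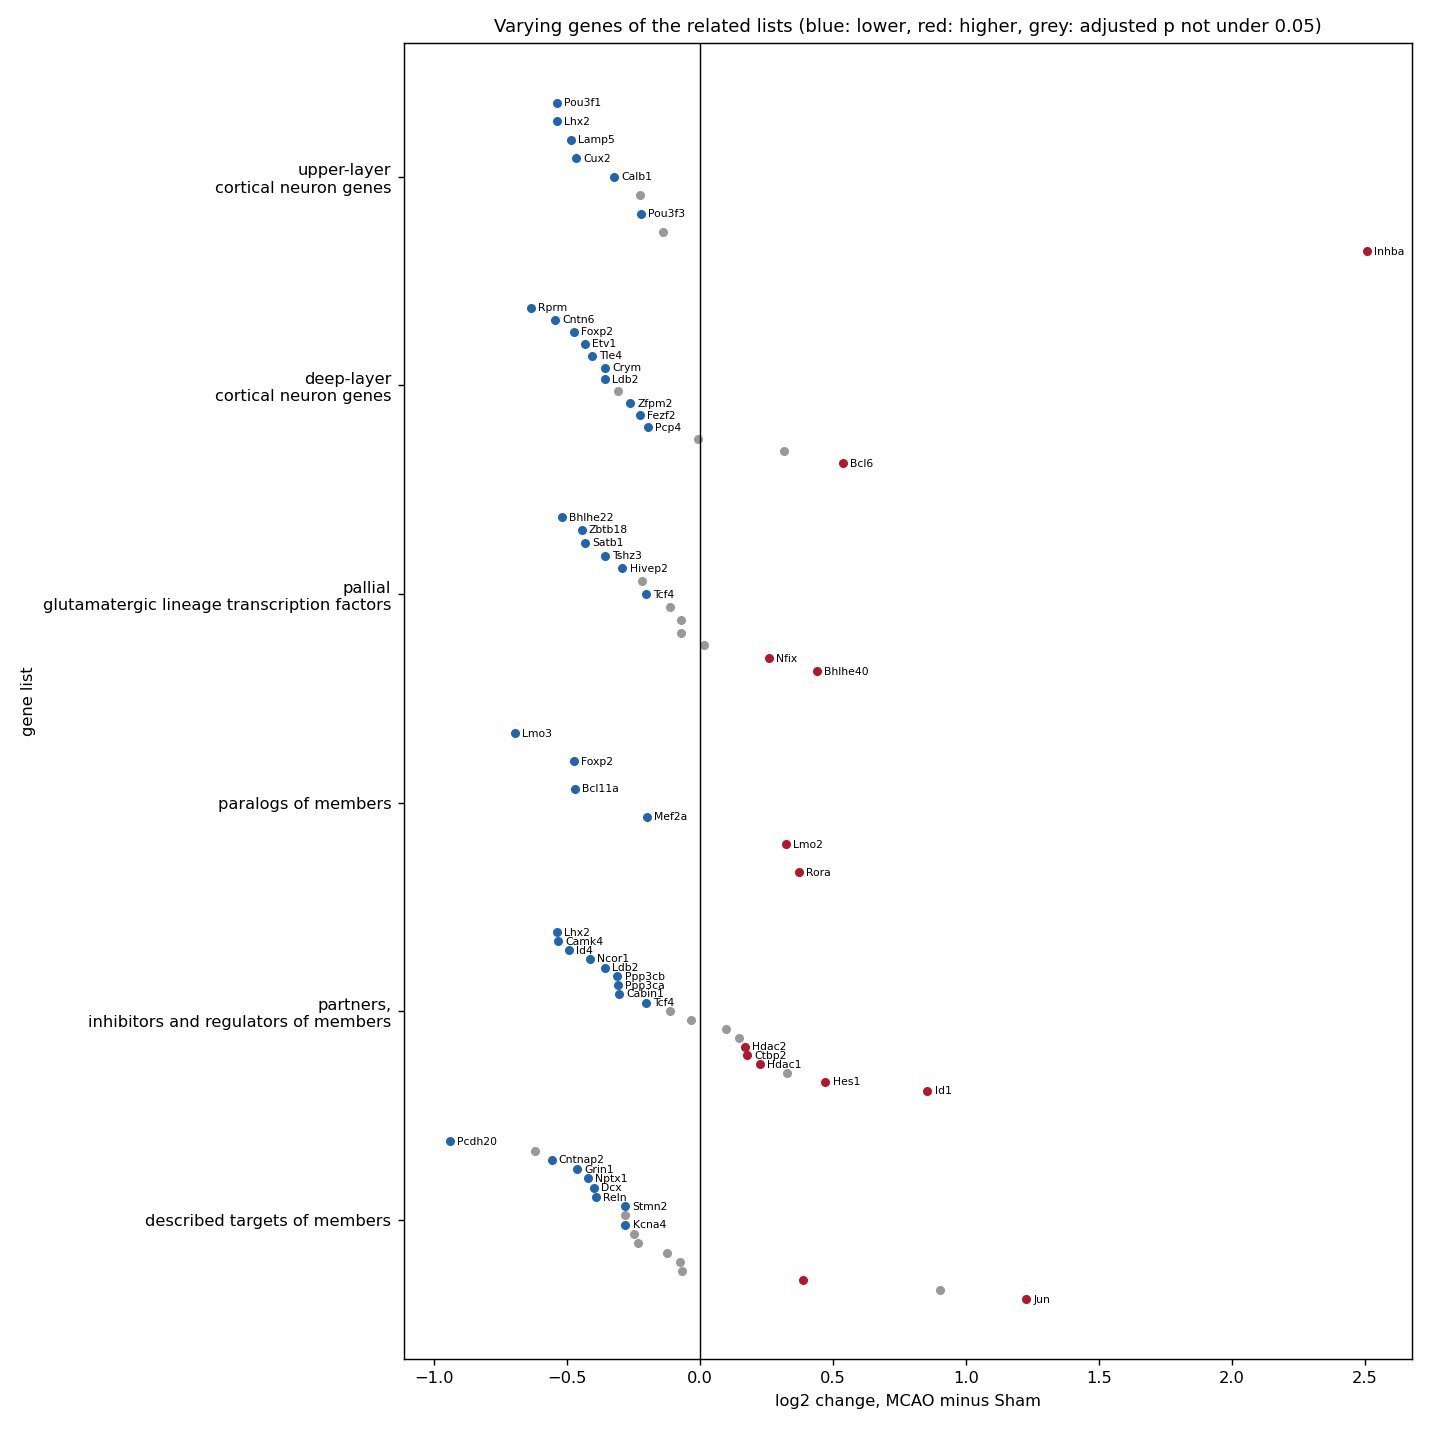
Log2 change, MCAO minus Sham (x axis), of every varying gene in the 6 related lists (rows), blue where it fell, red where it rose and grey where the adjusted p was not under 0.05. Most points of the layer lists lie between −0.6 and −0.2, Inhba stands alone at 2.51, and the paralog and partner lists have named genes on both sides of 0.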

How the data were processed

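Per the labels, biotin-labelled cRNA from 100 ng of RNA of each left hemisphere was hybridised, 1 array per rat. The deposited values are read as log2 signals from their range, because the authors' table names no log base. For background correction, summarisation and normalisation, the method is not given in the sources used here. Of 31099 probe sets, 20826 are assigned to 1 gene, 436 to several and 9780 to none by the platform annotation. Probe sets with 1 gene and above the 25th percentile of all values (6.61) in at least 5 arrays were tested with limma 3.58.1 in R 4.3.3 (lmFit, eBayes with intensity trend, two-sided, Benjamini-Hochberg adjustment, threshold 0.05), once over all 17238 probe sets and once with the brightest probe set of each of 12153 genes. Array medians spanned so little that no further normalisation was applied. Exact permutation tests used all 792 allocations of 7 and 5 arrays, with a smallest possible p of 0.00126. The scripts were tested on simulated data first.

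Replicates are separate rats. Their numbers were not treated as pairs, since they name no litter or day. Residuals of same-numbered MCAO and Sham rats correlated at −0.33 to 0.54 over 5 numbers, which does not settle whether the numbers carry a pairing. The members and lists were chosen with earlier results of these data known. All members are named. For the striatal, cortical glutamatergic, microglia, pan-neuronal and astrocyte marker lists, the 2 genes of smallest p are named. The interneuron, oligodendrocyte, thalamic, endothelial and lymphocyte lists are given without named genes. For each member whose brightest probe set varies, the 2 most similar genes are named. For each pathway list the 4 genes of smallest p are named, with up to 3 that moved against the majority. One gene of the target list that this rule names is not reported here. Mef2a, Cbln1, Gabra6, Id2, Id3, P2ry12, Tmem119, Cck, Camk2a and Slc17a7 were named after their values were seen. RefSeq's promoter table held 7 of the 9 members. Alternatives covered scaling, filters, probe set choice, weights, the replicate block and leaving out each rat. The number of arrays limits the precision.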

Additional observations from a re-analysis of the deposited data

How the results depend on the processing

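The 5 member genes fell, and 0 rose, under every alternative run: other scalings, filters, probe set choices, weights, a Gabra6 covariate and leaving out each rat. Each kept its call in all 27, with the highest adjusted p under the replicate block (Mef2c, limma adjusted p = 0.0415). These 27 are not separate tests. Changing the filter leaves the members' own values as they were, and for the exact permutation test the p was not adjusted. For Bcl11b, every alternative except the mean of probe sets rests on 1384944_at. The other Bcl11b probe sets, 1391948_at and 1378520_at, with changes of 0.04 and 0.02, passed in 0 of the 4 alternatives run on probe sets. With the probe set of largest variance, the call of Lmo4 is that of 1396470_at, tested only through the Sham rats, and adds no support. The same probe set also enters the mean of probe sets for Lmo4. With the replicate block, 6 member probe sets passed as lower rather than 10. Of the related lists, 18 genes passed as lower rather than 39, and 6 as higher rather than 13. In this fit the MCAO rats whose number no Sham rat shares add nothing to the estimated change, so it rests on fewer arrays. How far this accounts for the lost calls was not tested. The calls lost were Mef2c 1373410_at (change −0.71, adjusted p = 0.0581), Foxp1 1373804_at (−0.26, 0.113), Foxp1 1380544_at (−0.34, 0.0559) and Lmo4 1379803_at (−0.51, 0.0926), changes close in size to those without the block. Bcl11b 1378520_at turned to −0.0118 and Rorb 1395023_at to 0.0026, neither passing. Same-numbered rats share only a number. Leaving out 1 rat each gave 8 to 13 list genes that rose, with 8 without MCAO 1, MCAO 6 or Sham 2. Pairs of members with unequal change numbered 9 rather than 5 with near-constant probe sets left out or probe sets averaged, which brings Rorb in and other probe sets for some genes. With probe sets averaged, near-constant ones included, Bcl11b, Foxp1 and Lmo4 changed by −0.25, −0.25 and −0.24. Only 3 of the 5 probe sets of Foxp1 and of Lmo4 varied, against all 3 of Bcl11b. The averages of Foxp1 and Lmo4 thus hold probe sets on which no change can be read, and they do not show equal changes. Near-constant probe sets set a limit that no alternative lifts: for Tbr1 and Neurod2 no change was measurable. Signal over background is not in the deposited values, so dim probe sets such as Lmo4 1396470_at have unknown noise, and no occlusion severity is given for the rats.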
